A study of Mus musculus with 5 samples.

Results

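The Dlk1-Dio3 domain is an imprinted region of mouse chromosome 12, and its miRNA cluster was examined here in small RNA from extracellular vesicles (EVs), the membrane vesicles that cells shed into their medium. The 40 members are mature miRNAs chosen by name, of 1966 miRNA rows in the count table. The rule itself uses no measured value, but it was set with earlier results of these data known. Of the 40, 9 had a count in at least 1 of the 5 libraries and 31 were at 0 in all 5. Over all 1966 rows, 517 had a count and 1449 were at 0 in all 5. A single member, mmu-miR-409-3p, was counted in more than 1 library.

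All libraries came from EVs of mesenchymal stem cells of C57BL/6-GFP transgenic mice, collected after the cells had spent 48 h in serum-reduced medium. The not freeze-dried group had 2 libraries, titled as unmodified EVs. For the freeze-dried group, with 3 libraries, EVs in buffer with 25 mM trehalose were frozen at -80 °C, dried overnight and rehydrated for 1 h. The labels do not give the buffer of the not freeze-dried EVs. Drying therefore cannot be told apart from trehalose, freezing and rehydration in the comparison of the groups. The labels do not say whether replicates came from separate cultures, so their spread may be technical.

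In the imprinted domain the paternal chromosome expresses the protein-coding genes Dlk1, Rtl1 and Dio3, and the maternal one expresses the long non-coding RNAs Meg3, Rian and Mirg together with the miRNAs and small nucleolar RNAs. Dlk1 encodes a transmembrane protein that holds back adipocyte differentiation. A first group of miRNA hairpins lies opposite the Rtl1 transcript and can direct its cleavage, while a second, long run from miR-379 to miR-410 is best known from the brain and the embryo. Each hairpin gives a 5p and a 3p strand, of which usually one is loaded and kept. Bases 2 to 8 of the mature strand, the seed, do most of the target pairing.

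The mature sequences of the counted members are shown because they are the molecules on which the values rest, and so that their likeness to other miRNAs of the table can be judged. RefSeq (GRCm38.p6) held a mature sequence for 37 of the 40 members, among them 8 of the 9 counted ones; mmu-miR-487b-3p had no match. The seed is in capitals, 5′ to 3′.
mmu-miR-409-3p: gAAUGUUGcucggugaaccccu
mmu-miR-543-3p: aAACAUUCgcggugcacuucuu
mmu-miR-127-3p: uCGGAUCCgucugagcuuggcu
mmu-miR-382-5p: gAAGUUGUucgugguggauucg
mmu-miR-494-3p: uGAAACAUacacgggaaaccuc
mmu-miR-433-3p: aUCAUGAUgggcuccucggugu
mmu-miR-379-5p: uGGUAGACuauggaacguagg
mmu-miR-323-3p: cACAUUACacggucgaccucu

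The 37 matched members had 37 different seeds, so no 2 of them form a seed family. They were compared with the 1675 of 1966 rows that had a RefSeq sequence. None shared its whole sequence with another of these rows, and 1 came within 2 edits of another. Among these rows the nearest to miR-409-3p was miR-299a-3p, 8 edits away and with 0 counts. miR-382-5p was 7 edits from miR-1198-5p, which had 7405 counts over the 5 libraries. For miR-543-3p the distance was 4 edits, to miR-495-3p, itself a member at 0.

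In GENCODE M21 (GRCm38) the members' 36 hairpins lie on the plus strand of chromosome 12 between 109585789 and 109743795, a span of 158 kb. The first 7 hairpins, from miR-337 to miR-136, hold 10 members, and those of miR-431, miR-433, miR-127, miR-434 and miR-136 lie within an exon of Rtl1 on the opposite strand. Counts were found for 2 of these 10 members, miR-433-3p and miR-127-3p. Inside an intron of Rian lie miR-341 and miR-370, whose 2 members were both at 0. The run from miR-379 to miR-410 has 27 hairpins with 28 members, 7 of them with a count. The shares of members with a count were thus 20% in the Rtl1 group and 25% in the miR-379 to miR-410 run, beside 26.3% of all rows.

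**Figure D1:**
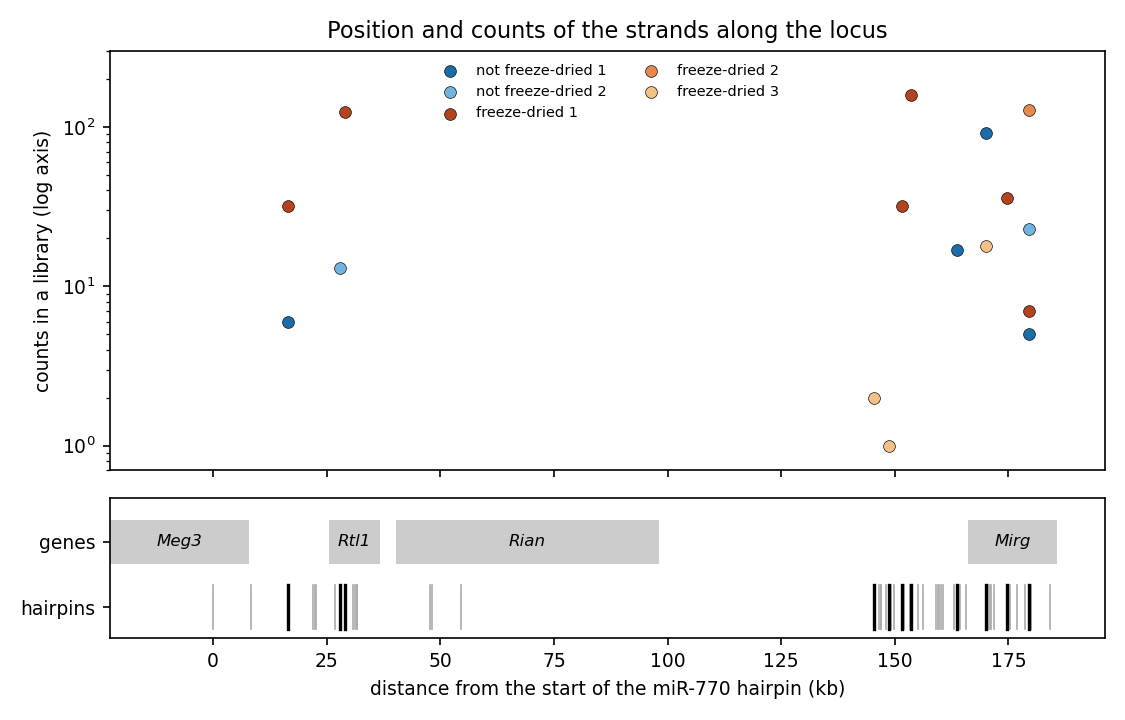
Counts in each library (upper panel, log axis, 1 colour per library) against distance from the start of the miR-770 hairpin in kb, with the hairpins (black with a count, grey at 0) and the non-coding and coding genes of the locus below. Counted members lie in the Rtl1 group and in the miR-379 to miR-410 run, both of which also hold grey hairpins, and miR-493 lies before them.

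Members at 0 in every library made up most of the cluster, as such rows did of the whole table (1449 of 1966). In the Rtl1 group these were miR-337-3p, miR-337-5p, miR-665-3p, miR-431-5p, miR-434-3p, miR-434-5p, miR-136-5p and miR-136-3p, and in Rian they were miR-341-3p and miR-370-3p. In the miR-379 to miR-410 run, 21 members were at 0. They include miR-134-5p, miR-329-3p and miR-381-3p, which are known for regulating dendrites in neurons, and miR-376a-3p, miR-376b-3p and miR-376c-3p, from hairpins known to undergo A-to-I editing. The others were miR-154-5p, miR-299a-5p, miR-300-3p, miR-369-3p, miR-377-3p, miR-380-3p, miR-409-5p, miR-410-3p, miR-411-5p, miR-485-5p, miR-495-3p, miR-539-5p, miR-541-5p, miR-667-3p and miR-668-3p. A count of 0 was bounded at 3 counts of a library's total, a set value and not the end of a 95% interval. With levels as CPM, a count scaled to a library total of 1000000, that limit was 1.03 CPM in freeze-dried replicate 1 and 1.21 CPM in replicate 2, but 15.6 CPM in freeze-dried replicate 3. It was 3.29 CPM in not freeze-dried replicate 1 and 22.8 CPM in replicate 2, so the shallow libraries say little about low levels. The exact 95% Poisson interval of a 0 reached higher, to 19.2 CPM in freeze-dried replicate 3 and 28.1 CPM in not freeze-dried replicate 2.

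Library totals ranged from 131507 to 2914305 counts, and the deepest had 22.2 times the counts of the shallowest. Not freeze-dried replicate 2 and freeze-dried replicate 3 were the shallow ones, below 500000 counts. These limits, and the binomial, Poisson and ratio intervals of counts, cover counting error alone, and whether duplicate reads were removed is not given in the sources used here. The 14 mesenchymal marker miRNAs, such as miR-21a-5p and miR-143-3p, were counted in all 5 libraries. Their summed share was 25.9% to 28.1% without freeze-drying and 18.8% to 22.1% after it. Of the 9 pluripotency miRNAs listed, none had a count. Partner strands outside that list, miR-292a-5p and miR-302a-5p, had 3 and 2 counts, each in 1 library. Red cell, leukocyte, neural and epithelial marker lists each took at most 0.239% of a library, the neural list being led by miR-128-3p.

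miR-409-3p, whose hairpin lies in an intron of Mirg at 109743158 to 109743236, was the most counted member. It had 5 and 23 counts in not freeze-dried replicates 1 and 2, and 7, 127 and 0 counts in freeze-dried replicates 1, 2 and 3. In CPM of the raw totals these were 5.48 and 175 against 2.40, 51.4 and 0. The highest level stood in the shallow not freeze-dried library, the shallow freeze-dried one at 0 has a limit above both replicates 1 and cannot be ranked against them, and the groups overlapped. Its other strand, miR-409-5p, had 0 counts in all 5. The hairpin shows the counted 3p strand in capitals, with the 5p strand in the lower-case part before it.
Mir409: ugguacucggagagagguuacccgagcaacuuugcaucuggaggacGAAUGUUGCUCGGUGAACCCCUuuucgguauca

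Replicates of the same group differed more in miR-409-3p than counting error allows, and so did the table as a whole. Over rows with at least 10 counts in a pair of libraries, chi-square per degree of freedom would be near 1 under counting error alone. It was 164 for the not freeze-dried pair and 452 for freeze-dried replicates 1 and 2. The spread is therefore not particular to miR-409-3p. Freeze-dried replicate 2 was 21.4-fold above replicate 1, with an exact 95% counting interval of 10.1 to 54.3. Not freeze-dried replicate 2 was 31.9-fold above replicate 1 (interval 11.9 to 107). By contrast, replicates 1 of both groups, both deep libraries, had levels whose ratio of 2.28 carried an interval from 0.571 to 8.35. Among the deep libraries alone, not freeze-dried replicate 1 at 5.48 CPM lay between the freeze-dried ones at 2.40 and 51.4. In the shallow pair the level was 175 CPM without freeze-drying, and 0, with a limit of 15.6 CPM, after it.

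**Figure D2:**
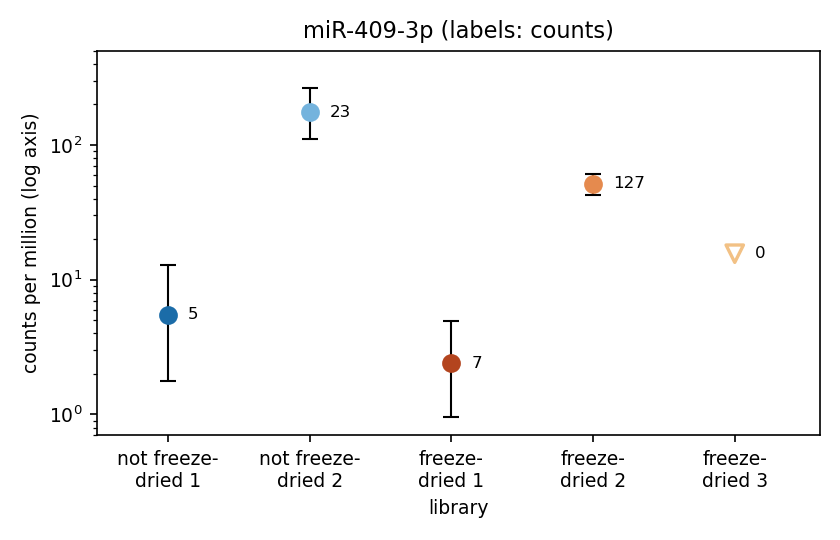
miR-409-3p in CPM (log axis) in each library, with exact 95% counting intervals and the raw counts as labels; the open triangle is the limit for the library at 0. Levels of 2.40 and 51.4 CPM in freeze-dried replicates 1 and 2, and of 5.48 and 175 CPM in the not freeze-dried ones, show the spread within each group.

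Whether freeze-drying changed miR-409-3p was tested with all miRNAs. The mean was 90.2 ± 120 CPM (SD, n = 2) in not freeze-dried EVs and 17.9 ± 29.0 CPM (SD, n = 3) in freeze-dried EVs. An exact two-sided permutation test of the levels gave p = 0.40, where 0.2 is the smallest the design allows, so that this test could not pass 0.05. The difference of -72.3 CPM was smaller than the SD of the not freeze-dried libraries. In edgeR's quasi-likelihood fit, miR-409-3p differed by -2.32 on the log2 scale, freeze-dried over not, with an SE of 2.52, a 95% interval from -7.97 to 3.34 and a Benjamini-Hochberg adjusted p of 0.98. Without not freeze-dried replicate 2 the estimate turned to 1.82. miR-409-3p was the 1 member that passed the filter on low counts, and it was not called. Of all 327 miRNAs tested, 0% were called higher and 0% lower by edgeR, with 9 at an unadjusted p under 0.05 (DESeq2 called 0, with 16 under 0.05). Without the filter all 9 counted members were tested and 0 were called, the smallest adjusted p in edgeR being 0.79.

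The other 8 counted members each appeared in 1 library. Freeze-dried replicate 1 held 3 of them. miR-543-3p, from the miR-379 to miR-410 run (hairpin at 109717258 to 109717333), had 159 counts there, or 54.6 CPM. miR-127-3p, which lies opposite Rtl1 and is complementary to it (109592846 to 109592915), had 124 counts, or 42.5 CPM. miR-494-3p (109715318 to 109715402) had 32 counts, or 11.0 CPM. At the same levels freeze-dried replicate 2, a library of like depth, would have given 135, 105 and 27.2 counts, and it had 0 of each. Between these 2 libraries of one group, the levels in replicate 1 were therefore 45.0-fold, 35.1-fold and 9.05-fold the limit of replicate 2. That limit is a floor of 3 counts in the library at 0. Such folds leave out the counting error of the library with the counts. The same 2 libraries also differed beyond counting error over the table as a whole, as given above.

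Not freeze-dried replicate 1 held 2 members, both from the miR-379 to miR-410 run. miR-382-5p had 91 counts, or 99.8 CPM, which was 4.37-fold the limit of not freeze-dried replicate 2, where the same level would have given 13.1 counts. For the deep freeze-dried replicates 1 and 2, both at 0, it was 96.9-fold and 82.3-fold their limits, a comparison of single libraries and not of the groups. miR-487b-3p (109727333 to 109727414) had 17 counts, or 18.6 CPM, a level below the 22.8 CPM limit of replicate 2, so that no difference between these replicates was detectable.

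Not freeze-dried replicate 2 held miR-433-3p, also from a hairpin opposite Rtl1 (109591715 to 109591838), with 13 counts or 98.9 CPM. That was 30.1-fold the limit of not freeze-dried replicate 1, in which the same level would have given 90.2 counts. The counting interval of the 13 counts was 52.6 to 169 CPM, which this fold leaves out. Freeze-dried replicate 3 held miR-379-5p with 2 counts and miR-323-3p with 1, which are 10.4 CPM (counting interval 1.26 to 37.5) and 5.20 CPM (0.132 to 29.0). For these 8 members any difference between the groups rests on 1 library, since each was at 0 in all the others, and none was called in the fit without the filter.

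**Figure D3:**
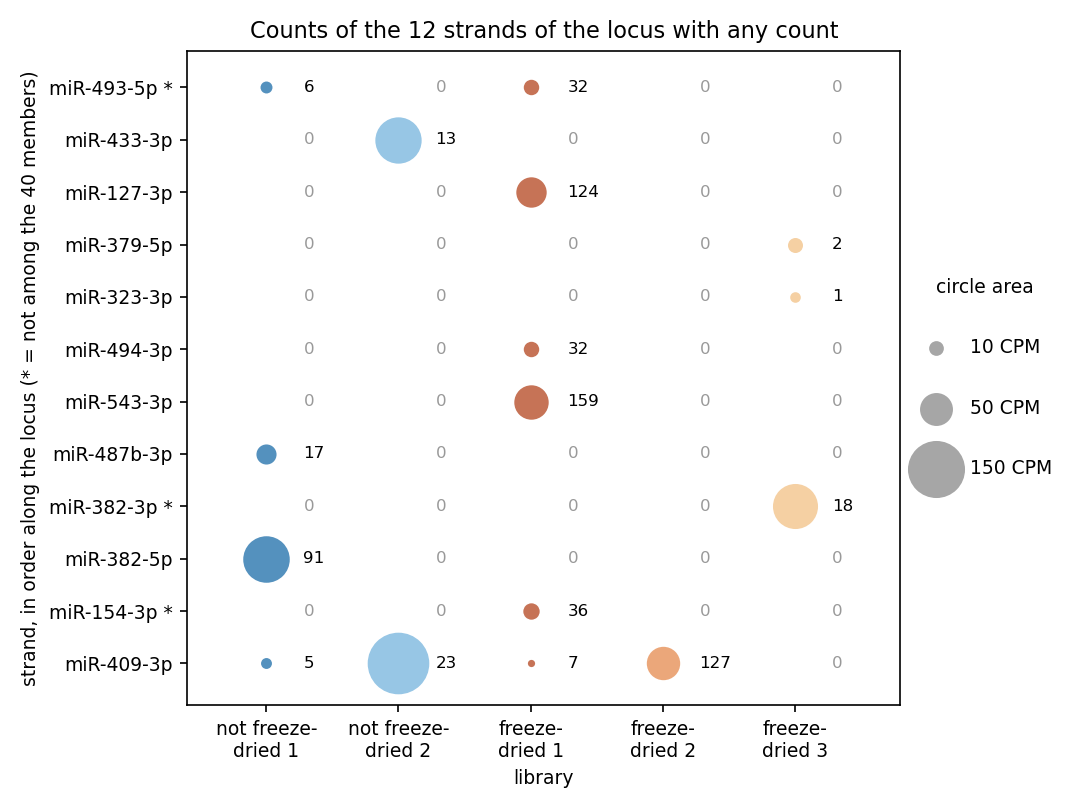
Raw counts (numbers) and CPM (circle area) of the 12 strands of the locus with any count, in order along the chromosome, in the 5 libraries; stars mark strands outside the 40 members. Except for miR-409-3p and miR-493-5p, each row has a single library above 0.

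Another 71 strands named for hairpins of the locus added 3 with a count, leaving out miR-496b, which RefSeq places on chromosome 19 and which had 0 counts. miR-493-5p, from a hairpin upstream of the Rtl1 group, had 6 counts in not freeze-dried replicate 1 and 32 in freeze-dried replicate 1. miR-154-3p had 36 counts in freeze-dried replicate 1, where its partner, the member miR-154-5p, had 0. miR-382-3p had 18 counts in freeze-dried replicate 3, or 93.5 CPM. Grouped by name, with miR-3070 standing for both Mir3070a and Mir3070b, these strands and the members came from 56 hairpins. Of these, 11 had a count. Among them 1, miR-382, was counted on both strands, its 5p strand in one library and its 3p strand in another. Both strands are in capitals in its hairpin, at 109733771 to 109733846 in an intron of Mirg.
Mir382: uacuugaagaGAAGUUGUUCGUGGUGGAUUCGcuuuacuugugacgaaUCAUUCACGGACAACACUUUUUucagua

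By strand, counts were found for 7 of the 26 members that are 3p strands and for 2 of the 14 that are 5p strands. The 3p strands held 508 of the 601 counts of the members. Over all 111 strands of the locus, 9 of 55 annotated 3p strands and 3 of 54 5p strands had a count.

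Together the 40 members took 0.0124% and 0.0274% of the counts in not freeze-dried replicates 1 and 2, from 113 and 36 counts. In freeze-dried replicates 1, 2 and 3 they took 0.0110%, 0.00514% and 0.00156%, from 322, 127 and 3 counts. Exact 95% binomial intervals were 0.0102 to 0.0149% and 0.0192 to 0.0379% without freeze-drying, and 0.00988 to 0.0123%, 0.00428 to 0.00611% and 0.000321 to 0.00456% after it. The 2 groups did not overlap, although the intervals of the 2 replicates 1 did. How many of all rows separate the groups in this way is not given here, so no result is read from it, here or for the marker lists. With 10 assignments of libraries, even full separation could not bring an exact two-sided permutation test below p = 0.2. Mean shares were 0.0199% ± 0.0106 (SD, n = 2) and 0.00591% ± 0.00479 (SD, n = 3). No test was made of this sum. Leukocyte markers, 2 of 4 with a count and both strands of miR-142a at 0, took 0.0114 to 0.0278% without freeze-drying and 0 to 0.00883% after it. Epithelial markers, 3 of 6 with a count and miR-200c-3p, miR-141-3p and miR-429-3p at 0, took 0.0707 to 0.0736% and 0.0203 to 0.0412%. miR-203-3p held 2211 of the 2549 epithelial counts and was the only one counted in not freeze-dried EVs. miR-200a-3p (243 counts) and miR-200b-3p (95 counts) went the other way, with counts in freeze-dried EVs only. Neural markers, 4 of 4 with a count, took 0.0958 to 0.121% and 0.139 to 0.239%. These ranges stand without the share of all rows that separate the groups, so no direction is read from them. The sums need not hold for each row, and miR-128-3p held 11195 of the 11972 neural counts. Mesenchymal rows went both ways in edgeR's log2 fold change, with miR-143-3p at -0.66 and miR-21a-5p at -0.28, but miR-199a-3p at 0.57 and miR-214-3p at 0.30. The part of these lists in the members' share was not tested.

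The order of the libraries depended on which strands were summed. Without miR-409-3p the shares were 0.0118% and 0.00989% in not freeze-dried EVs against 0.0108%, 0 and 0.00156% in freeze-dried EVs, which overlap. With all 111 strands they were 0.0130% and 0.0274% against 0.0134%, 0.00514% and 0.0109%, which also overlap. miR-409-3p made up 63.9% of the members' counts in not freeze-dried replicate 2 and 100% in freeze-dried replicate 2. In not freeze-dried replicate 1 miR-382-5p led with 80.5%, and in freeze-dried replicate 1 miR-543-3p led with 49.4%.

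**Figure D4:**
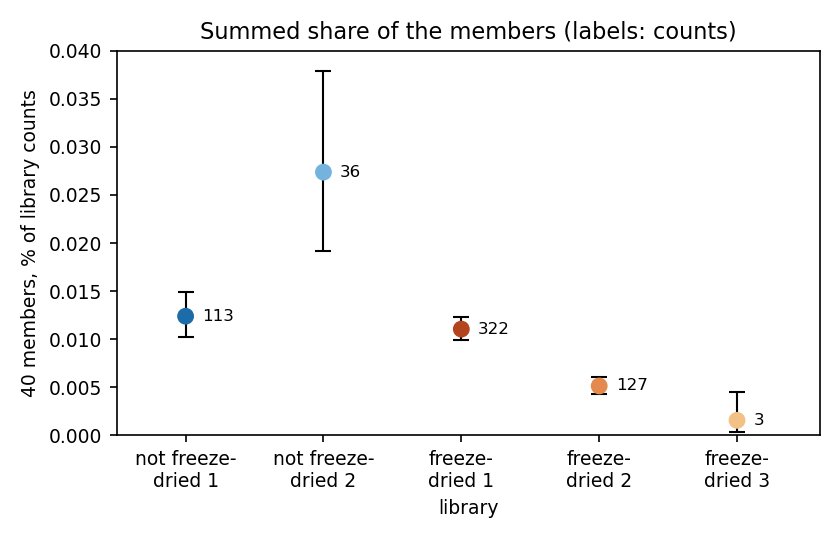
Share of library counts taken by the 40 members in each library, with exact 95% binomial intervals and the members' counts as labels. Shares run from 0.00156% in freeze-dried replicate 3 to 0.0274% in not freeze-dried replicate 2, and the intervals of the 2 replicates 1 overlap.

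Few members were counted in any one library. Not freeze-dried EVs had 3 members in replicate 1 and 2 in replicate 2. Freeze-dried EVs had 4, 1 and 2 members in replicates 1 to 3. Brought by exact rarefaction to the 131507 counts of the shallowest library, the expected numbers were 2.47 and 2 against 3.04, 0.999 and 1.58. At equal depth the order ran from freeze-dried replicate 1, the highest, to freeze-dried replicate 2, the lowest. Over all rows the same calculation gave 299 to 333 miRNAs a library. As shares these were 2.50 to 7.61% of the members and 15.2 to 16.9% of all rows. Freeze-dried replicate 3 shared no counted member with any other library, and the other 4 shared miR-409-3p alone.

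The members were set beside all rows of the table to show how usual these patterns are. With the 5 libraries pooled, a count in any library was found for 22.5% of members and 26.3% of all rows. Within single libraries at equal depth the member share was lower, at 2.50 to 7.61% against 15.2 to 16.9% of all rows. Of the counted rows, 8 of 9 members and 159 of 517 miRNAs in all were found in 1 library. Rows with 10 to 200 counts in total, the range of 7 members, had 88 of 175 in 1 library, and 6 of those 7 members. Single-library rows reached 373 counts over the whole table and 159 among the members. In freeze-dried replicates 1 and 2, 15 of 361 and 15 of 320 counted rows had under 10 counts. By total counts miR-409-3p ranked 286 of 517 and by mean CPM, to which the shallow library at 175 CPM adds most, 248. Within not freeze-dried replicates 1 and 2 it ranked 297 of 323 and 160 of 315 counted rows, and within freeze-dried replicates 1 and 2 it ranked 348 of 361 and 225 of 320. For mean CPM over the 5 libraries, zeros included, the median over counted rows was 8.51 for members and 40.2 for all. For a member counted in 1 library, this mean lies below its level in that library. These are descriptions of the table and no test of the cluster.

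**Figure D5:**
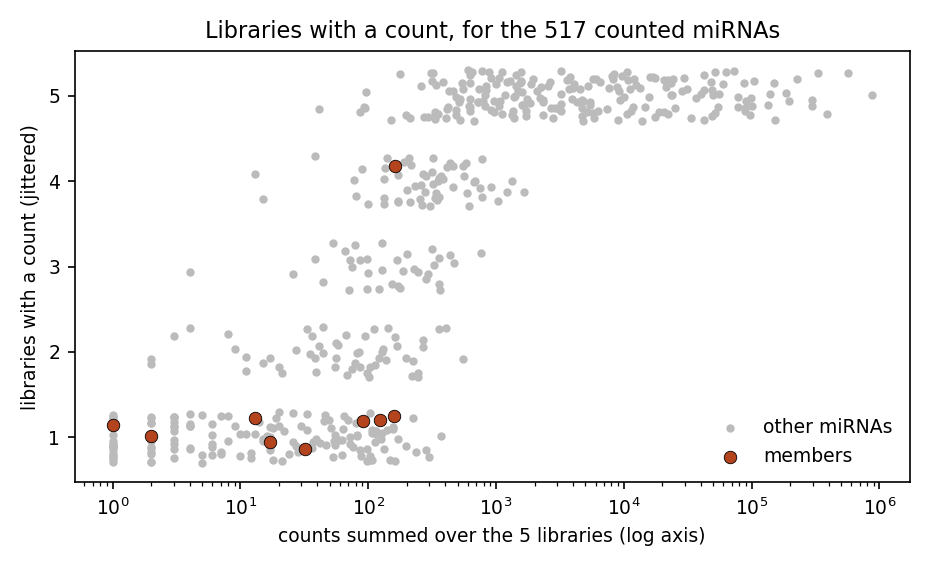
Number of libraries with a count (jittered) against counts summed over the 5 libraries (log axis) for the 517 counted miRNAs, members in red. Of the 9 counted members, 8 lie in the row for 1 library, at 159 counts or fewer, and miR-409-3p lies at 4 libraries.

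Among other imprinted miRNA loci, 80 rows were chosen by family name for the intronic repeat cluster of Sfmbt2, and their places were not checked. Of these rows 31 had counts, and together they took 0.211 to 0.317% of each library, though near-identical copies can share reads. Mest, another imprinted gene, carries miR-335 in an intron, and both of its strands were counted, at 0.00104 to 0.0590% of a library. The strands of miR-483, in Igf2, took 0.00144 to 0.0138%, a range that overlaps that of the 40 Dlk1-Dio3 members. miR-675 of H19 and miR-296 and miR-298 of the Gnas locus were at 0 in all libraries.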

How the data were processed

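Small RNA libraries of 5 EV samples were grouped by title. The authors deposited raw read counts per mature miRNA. GRCm38 is the build in the submitters' processing notes. Tools listed there, with no role, are featureCounts 1.5.0-p1, Bowtie 1.1.2, cutadapt 2.3, bcl2fastq 2.20 and FastQC. How multi-mapping reads, strand and duplicates were handled, and from which miRNA annotation, is not given in the sources used here.

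Members and comparison lists were chosen with earlier results of these data known. Shares are of raw library totals, with exact Clopper-Pearson or Poisson 95% intervals. A count of 0 was bounded at 3 counts per library. The freeze-drying contrast was fitted over all miRNAs by the robust quasi-likelihood test of edgeR 4.0.16 (R 4.3.3), after TMM and filterByExpr, with Benjamini-Hochberg adjustment and a threshold of 0.05, and was checked on simulated counts. DESeq2 1.42.0, limma-voom (limma 3.58.1), other normalizations, no filter, a depth term, a replicate block and leaving out each library were alternatives. Depth class was split at 500000 counts. Permutation tests used all 10 assignments of libraries. Named were all members, with values for those counted; the rule for sequences (counted in 2 libraries) was widened to all counted members after their values were seen. Hairpin places are from GENCODE M21 (GRCm38) and sequences from RefSeq, both matched by name. Fits without a not freeze-dried library assume that the remaining one varies as the others do.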

Additional observations from a re-analysis of the deposited data

How the results depend on the processing

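The counts of 0 miRNAs called higher and 0 called lower held under all alternatives run, except that edgeR with the replicate block called 4 lower, 0 of them members. The replicate numbers gave 2 pairs, whose deviations correlated at 0.17 and -0.12, and the labels do not tie them, so they were not taken to pair the samples. Under the block the log2 fold change of miR-409-3p was -1.39 (edgeR adjusted p = 0.999). Its sign was negative under every alternative except without not freeze-dried replicate 2, where it was 1.82, and leaving out 1 library gave -3.22 to 1.82. limma-voom gave -0.41. The median log2 fold change of all miRNAs tested was 0.02, but 0.25 without the count filter, 0.57 without not freeze-dried replicate 1 and 0.50 without replicate 2. Without freeze-dried replicate 2, miR-409-3p failed the count filter and had no value. Adjusted p-values of miR-409-3p ranged from 0.87 to 0.999. Its level in freeze-dried minus not freeze-dried EVs, -72.3 CPM, became 12.4 without not freeze-dried replicate 2 and -157 without replicate 1. The mean share of the members ranged from 0.0124 to 0.0274% in not freeze-dried EVs and from 0.00335 to 0.00809% in freeze-dried EVs without 1 library. With all strands it was 0.0202 and 0.00981%, and without miR-409-3p 0.0109 and 0.00412%. The 9 members with a count became 7 at 3 or more counts, 7 at 10 or more, and 6 to 9 without 1 library, with 6 without freeze-dried replicate 1. Depth limits every value, since 1 count is 0.343 CPM in the deepest library and 7.60 CPM in the shallowest.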
